A study of Macaca mulatta with 36 samples.

Results

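GFAP, CHI3L1, OSMR and CD44 are 4 genes that mark reactive astrocytes, and they are described here in the hippocampus of rhesus macaques with simian immunodeficiency virus encephalitis (SIVE) and of uninfected controls. They were chosen by symbol: every probe set whose single gene symbol is one of the 4 was taken. This gave 7 probe sets of 52707 tested, and 4 genes of 14132 with a probe set of 1 symbol. GFAP had 2 probe sets, MmuSTS.4827.1.S1_at (called A) and MmuSTS.1721.1.S1_at (B). OSMR had 3 probe sets, MmugDNA.37742.1.S1_at (A), MmuSTS.1991.1.S1_at (B) and MmugDNA.30883.1.S1_at (C). CHI3L1 had 1, MmuSTS.1168.1.S1_at, and CD44 also had 1.

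The study measured total RNA of hippocampus on 36 Affymetrix arrays, 2 for each of 18 male macaques. Of 9 animals with SIVE, 4 had been given anti-CD8 and were 6 years old, and 5 had not and were 2 to 5 years old. Of 9 uninfected controls, 2 had been given anti-CD8 and were 3 to 4 years old, and 7 had not and were 3 to 8 years old. The labels give neither the virus strain nor the time since infection, and name no antibody clone or dose. Values are log2 signals after robust multi-array averaging, and the median probe set level was 5.65. Both arrays of each animal were averaged first, and n counts animals. The labels do not say how the 2 samples of an animal were taken.

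Astrocytes respond to injury and inflammation by a change of state called reactive gliosis, in which the cell body enlarges and the cytoskeleton is rebuilt. GFAP is the intermediate filament protein of the mature astrocyte and the usual marker of that state. CHI3L1 encodes a secreted chitinase-like protein, also called YKL-40, that binds chitin without cutting it and is made by astrocytes and macrophages in inflamed tissue. OSMR encodes the oncostatin M receptor, which pairs with the shared subunit IL6ST and signals through JAK kinases and STAT3. CD44 encodes a surface receptor for hyaluronan that is carried by some astrocytes and by most leukocytes. In bulk tissue, more cells of a type and more RNA per cell cannot be told apart.

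The tissue label was checked against markers. Astrocyte markers were bright in both groups, with list means of 10.30 to 10.70 in SIVE and 10.54 to 10.88 in controls over 11 measured genes. Of 4 measured dentate granule cell markers, PROX1 averaged 8.44 ± 0.21 in SIVE and 8.62 ± 0.24 in controls, and C1QL2 averaged 9.04 ± 0.51 in SIVE and 8.92 ± 0.47 in controls (SD, n = 9 each), while DSP and TDO2 were below the median probe set level. The same 4 genes can be made by cells other than astrocytes, and markers of those cells are given beside the results. Duplicate arrays of an animal correlated at 0.977 to 0.997 over probe sets. The control transcripts GAPDH, ACTB and EEF1A1 gave a 3′ minus 5′ log2 signal difference, a sign of RNA integrity or labelling, of 0.955 to 1.45 in SIVE 2, SIVE 3 and Control 8, against 0.104 to 0.466 in the 15 other animals. That difference averaged 0.442 ± 0.374 in SIVE and 0.415 ± 0.394 in controls (SD, n = 9 each; exact permutation p = 0.917, two-sided). The SIVE against control result of each member probe set is given with and without those 3 animals.

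In SIVE all 4 genes rose on their brightest probe set, by 2.18 for CHI3L1, 1.42 for OSMR, 1.24 for CD44 and 0.36 for GFAP (log2); other probe sets of OSMR and GFAP gave smaller differences. Probe sets of all 4 genes were among the 5 of 7 that passed, each of them higher, in limma at an adjusted p under 0.05. Over all probe sets, 4.92% passed, and 3.63% were higher. The median difference over all probe sets was -0.04 (log2).

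**Figure D1:**
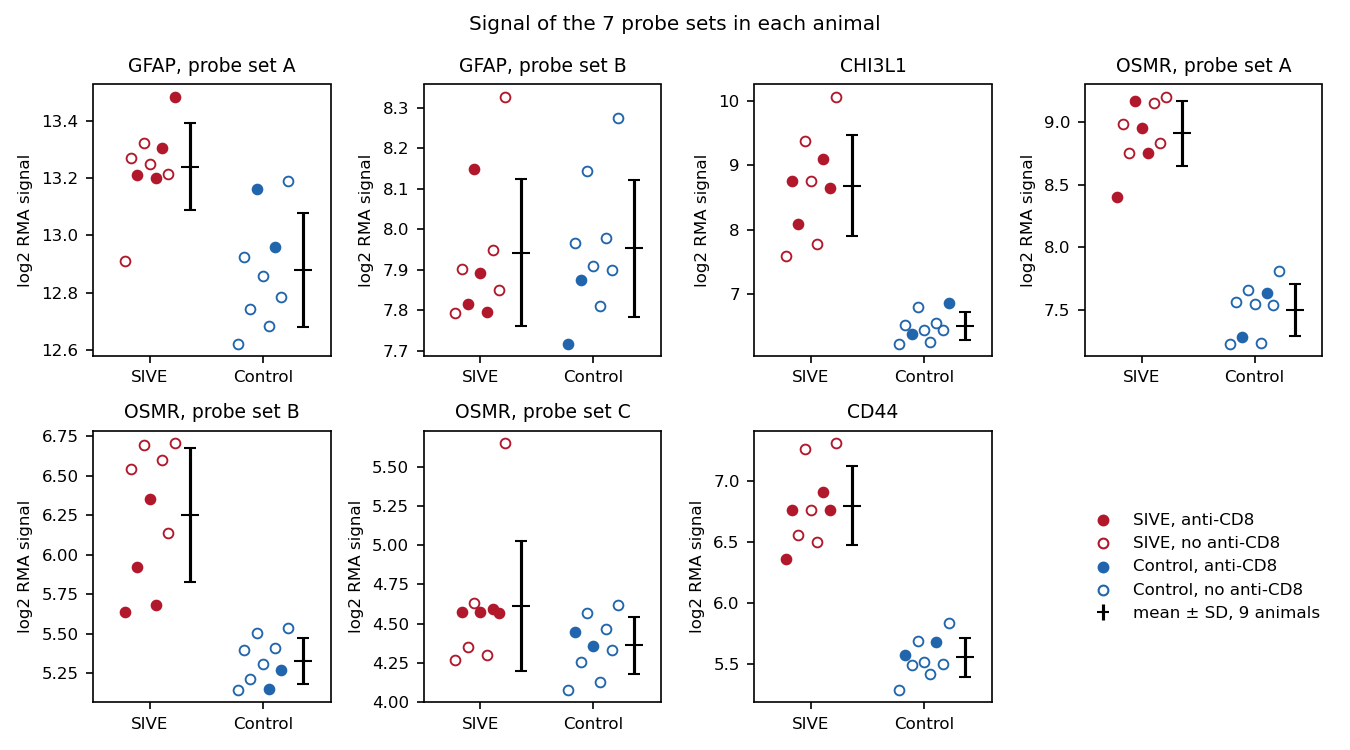
Each panel plots 1 probe set, with log2 signal on the y axis; points are the 9 SIVE animals (left) and the 9 controls (right), filled for anti-CD8, with the mean ± SD beside them. The y axes differ between panels and do not start at 0. CHI3L1, OSMR probe sets A and B and CD44 separate the groups, GFAP probe set A overlaps at SIVE 9, and GFAP probe set B and OSMR probe set C overlap widely.

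CHI3L1 had a log2 signal of 8.64 in SIVE 1, 9.10 in SIVE 2, 8.75 in SIVE 3, 8.09 in SIVE 4, 8.75 in SIVE 5, 7.60 in SIVE 6, 10.06 in SIVE 7, 7.78 in SIVE 8 and 9.38 in SIVE 9. In controls the lowest was 6.24 (Control 1), the median 6.45 and the highest 6.87 (Control 9). Every SIVE animal lay above every control, and SIVE animals spread far more widely than controls. The mean was 8.68 ± 0.78 in SIVE and 6.51 ± 0.22 in controls (SD, n = 9 each), a difference of 2.18 ± 0.25 (SE), or 4.52-fold (limma, adjusted p = 8.84e-06). CHI3L1 ranked 146 by size of rise among 52707 probe sets. Without the 3 animals of high 3′ signal the difference was 2.09 ± 0.29 (limma, adjusted p = 0.000135).

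OSMR probe set A ranged in SIVE from 8.40 (SIVE 1) over a median of 8.95 to 9.21 (SIVE 7), and in controls from 7.23 (Control 5) over a median of 7.54 to 7.81 (Control 2). The groups did not overlap. The mean was 8.91 ± 0.26 in SIVE and 7.50 ± 0.21 in controls (SD, n = 9 each), a difference of 1.42 ± 0.11 (SE), or 2.67-fold (limma, adjusted p = 2.13e-08), and 1.45 ± 0.12 without the 3 animals of high 3′ signal (adjusted p = 4.00e-07). OSMR probe set B ranged in SIVE from 5.64 (SIVE 3) over a median of 6.36 to 6.71 (SIVE 9), and in controls from 5.14 over a median of 5.31 to 5.54 (Control 4). It also separated every SIVE animal from every control, though SIVE 2 and SIVE 3 lay close to the highest control. Its mean was 6.25 ± 0.43 in SIVE and 5.32 ± 0.15 in controls, a difference of 0.93 ± 0.14 (SE), or 1.90-fold (limma, adjusted p = 0.000255), and 1.09 ± 0.11 without the 3 animals of high 3′ signal (limma, adjusted p = 5.27e-06).

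OSMR probe set C did not pass the test. It averaged 4.61 ± 0.41 in SIVE and 4.36 ± 0.18 in controls, a difference of 0.25 ± 0.14 (SE; limma, adjusted p = 0.318), and 0.26 ± 0.17 without the 3 animals of high 3′ signal (adjusted p = 0.324). Both means were under that median level of 5.65, and the highest value, 5.65 in SIVE 8, stood far from the next, 4.63. Over animals of 1 group, probe sets A and B of OSMR correlated at 0.57 in SIVE and 0.66 in controls (n = 9 each), while A and C correlated at -0.35 in SIVE and 0.20 in controls. These correlations are descriptions of probe sets read on the same arrays.

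CD44 ranged in SIVE from 6.36 (SIVE 3) over a median of 6.76 to 7.31 (SIVE 5), and in controls from 5.28 (Control 6) over a median of 5.52 to 5.83 (Control 7). No SIVE animal reached down to the highest control. The mean was 6.80 ± 0.32 in SIVE and 5.55 ± 0.16 in controls (SD, n = 9 each), a difference of 1.24 ± 0.11 (SE), or 2.37-fold (limma, adjusted p = 4.33e-07). The control mean lay just under the median probe set level. Without the 3 animals of high 3′ signal the difference was 1.31 ± 0.12 (limma, adjusted p = 1.25e-06). For CHI3L1, OSMR probe sets A and B and CD44, the exact permutation test over the 18 animals gave p = 4.1e-05 (two-sided), the smallest that 9 against 9 can give. How many of all probe sets separate the groups in this way was not counted, so the separation is a description only. Among genes named below, SERPINA3, CD74, SRGN, SPP1, CHI3L2, LYZ, VSIG4, CD14 and GZMB also separated every SIVE animal from every control. IDO1, CCL3, SOD2 and CXCL10, given below among the genes most like a member, did so too.

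GFAP probe set A ranged in SIVE from 12.91 (SIVE 9) over a median of 13.25 to 13.48 (SIVE 2), and in controls from 12.62 (Control 7) over a median of 12.86 to 13.19 (Control 5). The groups overlapped: 8 of 9 SIVE animals lay above the highest control, while SIVE 9 lay among the controls, of which 5 were lower than it. The mean was 13.24 ± 0.15 in SIVE and 12.88 ± 0.20 in controls (SD, n = 9 each), a difference of 0.36 ± 0.08 (SE), or 1.28-fold (limma, adjusted p = 0.0129; exact permutation p = 0.000699). The highest value of the whole table was 14.49, so this probe set sat near the top of the scale in both groups; whether the array still responds in proportion there was not tested. Without the 3 animals of high 3′ signal the difference was 0.35 ± 0.08 (limma, adjusted p = 0.0155).

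GFAP probe set B gave no such difference. It ranged from 7.79 over a median of 7.89 to 8.33 (SIVE 9) in SIVE, and from 7.72 (Control 8) over a median of 7.91 to 8.27 (Control 7) in controls. The mean was 7.94 ± 0.18 in SIVE and 7.95 ± 0.17 in controls, a difference of -0.01 ± 0.08 (SE; limma, adjusted p = 0.957), and -0.02 ± 0.09 without the 3 animals of high 3′ signal (adjusted p = 0.929). SIVE 9 was lowest on A and highest on B among SIVE animals, and Control 7 likewise among controls, while SIVE 1 and SIVE 8 were lower than most on A and lowest on B. The correlation of A with B was -0.71 over the SIVE animals and -0.88 over the controls (n = 9 each), a description of 2 probe sets on the same arrays. Which transcripts each of them reads was not analysed here. The rise of GFAP therefore rests on probe set A alone.

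**Figure D2:**
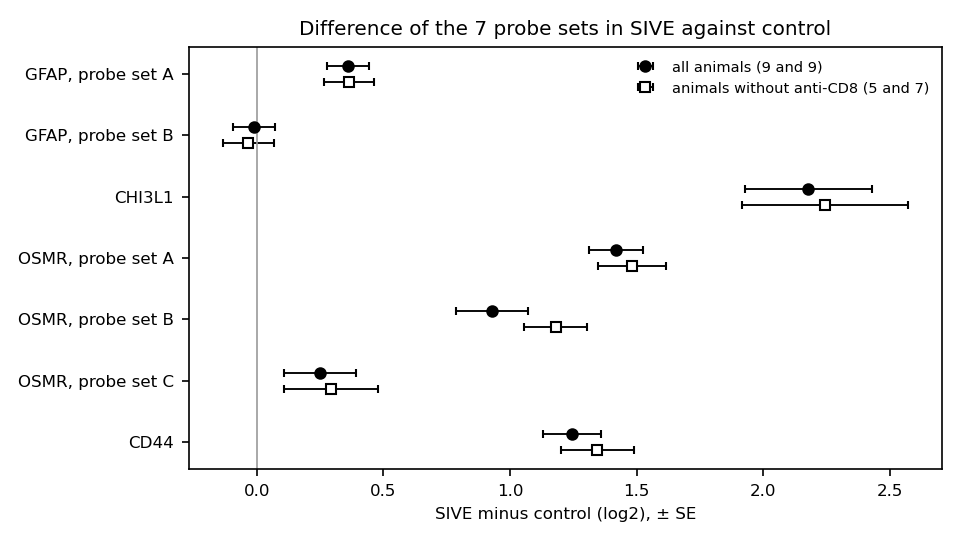
The x axis gives SIVE minus control on the log2 scale with its SE for each of the 7 probe sets; filled circles are all 9 and 9 animals, and open squares the 5 SIVE and 7 control animals without anti-CD8. CHI3L1 lies farthest right at 2.18 and GFAP probe set B at 0. The filled and open symbols lie farthest apart for OSMR probe set B, at 0.93 and 1.18, and closer together for the other probe sets.

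The comparison without anti-CD8 asks whether the differences are there when no animal had received the antibody. Among the 5 untreated SIVE animals and 7 untreated controls, 4 of 7 probe sets passed, all higher, against 3.13% of all probe sets. CHI3L1 was higher by 2.24 (limma, adjusted p = 0.000404) and OSMR probe set A by 1.48 (adjusted p = 1.56e-06). OSMR probe set B was higher by 1.18 (adjusted p = 9.63e-06) and CD44 by 1.34 (adjusted p = 1.37e-05). GFAP probe set A averaged 13.19 ± 0.16 in the untreated SIVE animals and 12.83 ± 0.19 in the untreated controls, a difference of 0.36 ± 0.10 (SE) that did not pass (limma, adjusted p = 0.0519). Without SIVE 9 the difference was 0.43 and passed (adjusted p = 0.0208). With each of the 18 animals left out in turn, it passed 5 times, with adjusted p from 0.00878 to 0.129 (without SIVE 7). Leaving out a treated animal kept the difference at 0.36 and changed only its SE and the adjustment. The passes without SIVE 2, Control 8 and Control 9 were of this kind (limma, adjusted p = 0.0489, 0.0486 and 0.0486). The passes without SIVE 9 and Control 5 left out an untreated animal. The difference of GFAP probe set A passed under 11 of the 28 alternatives run, with an adjusted p of up to 0.230. The difference of the SIVE effect between treated and untreated animals passed for 0 of 7 probe sets and for 0% of all, in limma; 1481 probe sets, 1 of them a member, had an unadjusted p under 0.05. That member was OSMR probe set B, with -0.49 ± 0.22 (SE; adjusted p = 1.00).

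Within SIVE, 4 animals with anti-CD8 were compared with 5 without. All 4 treated animals were older than every untreated one, so age and treatment cannot be told apart. In limma 0 of 7 probe sets passed, against 0.0019% of all (1 probe set; 8079 had an unadjusted p under 0.05). OSMR probe set B was the member with the lowest p. It had 5.92, 5.68, 5.64 and 6.36 in the treated SIVE animals, against 6.60, 6.14, 6.69, 6.54 and 6.71 in the untreated ones. The 3 lowest of the 9 were treated, and SIVE 4, treated, lay among the untreated. The mean was 5.90 ± 0.33 in treated (n = 4) and 6.54 ± 0.23 in untreated SIVE animals (n = 5), a difference of -0.64 ± 0.14 (SE; limma, unadjusted p = 0.000296, adjusted p = 0.294). With all 36 arrays and the animal as a random block, the same difference had an adjusted p of 0.0184 in limma. SIVE 2 and SIVE 3, of high 3′ signal, are both treated, and without them and Control 8 the difference was -0.40 ± 0.16 (adjusted p = 1.00). The 3′ minus 5′ difference averaged 0.630 ± 0.522 in treated and 0.291 ± 0.108 in untreated SIVE animals (exact permutation p = 0.254), and its part in the OSMR values was not tested beyond these fits.

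GFAP probe set A averaged 13.30 ± 0.13 in treated and 13.19 ± 0.16 in untreated SIVE animals, CHI3L1 8.65 ± 0.42 in treated and 8.72 ± 1.04 in untreated, OSMR probe set A 8.82 ± 0.33 in treated and 8.99 ± 0.20 in untreated, and CD44 6.70 ± 0.24 in treated and 6.88 ± 0.38 in untreated (SD, n = 4 and 5). CHI3L1 held both the highest and the lowest SIVE value in the untreated animals. Within controls, 2 treated animals were compared with 7 untreated ones, and 0 of 7 probe sets passed in limma, against 0% of all; 8266 probe sets and 0 members had an unadjusted p under 0.05. GFAP probe set A averaged 13.06 ± 0.14 in treated and 12.83 ± 0.19 in untreated controls (adjusted p = 0.370).

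**Figure D3:**
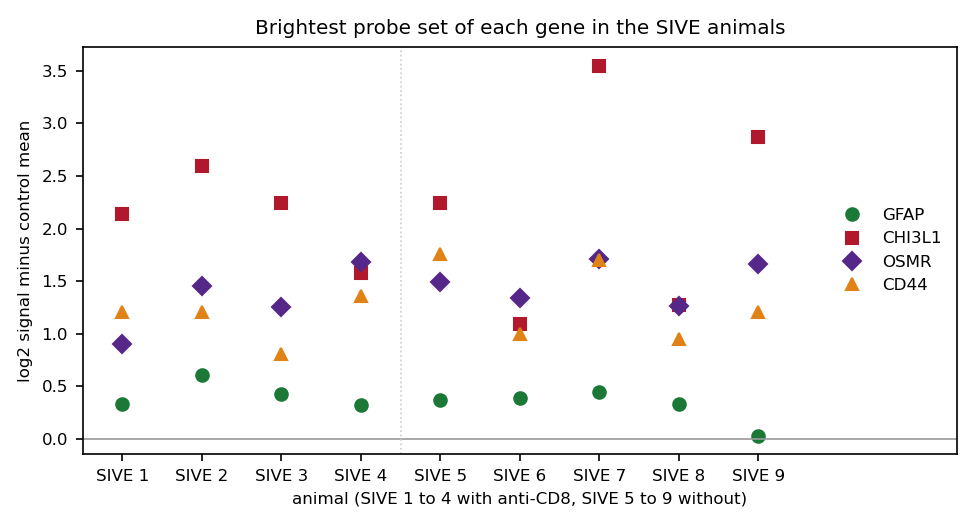
For each SIVE animal on the x axis the symbols give the log2 signal of the brightest probe set of each gene minus its control mean, with SIVE 1 to 4 given anti-CD8 and SIVE 5 to 9 not. CHI3L1 spans the widest range over the animals, GFAP lies lowest in each, and SIVE 9 has the lowest GFAP beside the second highest CHI3L1.

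Whether the 4 genes varied together was examined within SIVE, over the brightest probe set of each gene. None of the 6 pairs passed after Benjamini-Hochberg adjustment of exact permutation p-values over the 6 (n = 9, two-sided). The highest Pearson's r were 0.525 between CHI3L1 and CD44 (exact permutation p = 0.148, adjusted p = 0.462; Spearman's rho 0.300, p = 0.437) and 0.517 between OSMR and CD44 (p = 0.154, adjusted p = 0.462; rho 0.633, p = 0.076). Without the 2 animals farthest from the median of the first gene, these were 0.151 and 0.626. CHI3L1 and OSMR gave r = 0.414 (exact permutation p = 0.270, adjusted p = 0.540; rho 0.450, p = 0.230), and 0.200 without SIVE 7 and SIVE 6. SIVE 7 had the highest CHI3L1, the highest OSMR and the second highest CD44.

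No pair of GFAP with the other 3 genes passed in SIVE. Its r was 0.004 with CHI3L1 (exact permutation p = 0.993; rho 0.283, p = 0.463), -0.161 with OSMR (p = 0.691; rho -0.033, p = 0.948) and 0.035 with CD44 (p = 0.938; rho -0.167, p = 0.678), each with an adjusted p of 0.993. SIVE 9, lowest for GFAP, was second highest for CHI3L1 and among the 3 highest for OSMR. Without SIVE 9 and SIVE 2, GFAP and CHI3L1 gave r = 0.618; without SIVE 9 alone it was 0.511, and without SIVE 2 alone -0.149. In controls, 0 of 6 pairs passed; the lowest p was that of CHI3L1 with OSMR (r = -0.732, exact permutation p = 0.027, adjusted p = 0.164; rho -0.667, p = 0.059; -0.429 without Control 9 and Control 7). The treated and untreated SIVE animals, 4 and 5, were too few for an r within each.

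The genes were also set against 4 other measures within SIVE: the 3′ minus 5′ difference, the mean of 13 microglia and macrophage markers, the mean of 11 astrocyte markers, and a probe set of the viral genome. None of 16 relations passed (exact permutation, Benjamini-Hochberg over the 16, n = 9). The lowest p was that of CHI3L1 with the astrocyte mean (r = -0.728, exact permutation p = 0.023, adjusted p = 0.371; rho -0.700, p = 0.043), and r was -0.122 without SIVE 7 and SIVE 6. The virus probe set averaged 8.97 ± 1.31 in SIVE and 4.66 ± 0.37 in controls (SD, n = 9 each), with every SIVE animal at 7.61 or above and no control above 5.20. Its r was 0.564 with CHI3L1 (exact permutation p = 0.117, adjusted p = 0.558; rho 0.533, p = 0.148), and -0.092 without SIVE 7 and SIVE 9.

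Genes most like each member were sought over the 18 animals' deviations from their own group mean, among 9589 genes, and 3 are given for each; the r values describe genes read on the same arrays. For CHI3L1 the closest was IDO1, the enzyme that starts breakdown of tryptophan along the kynurenine path, with r = 0.909, then the chemokine CCL3 with 0.816 and the mitochondrial superoxide dismutase SOD2 with 0.808. All 3 were themselves higher in SIVE. IDO1 averaged 8.57 ± 0.95 in SIVE and 5.28 ± 0.16 in controls (difference 3.29; limma, adjusted p = 2.88e-07), CCL3 7.38 ± 0.68 in SIVE and 5.45 ± 0.17 in controls (1.94; adjusted p = 5.80e-06), and SOD2 9.89 ± 0.70 in SIVE and 7.03 ± 0.16 in controls (2.86; adjusted p = 3.39e-08). Within SIVE alone the r of CHI3L1 with IDO1 was 0.945 (rho 0.90), and 0.938 without SIVE 9 and SIVE 7. In controls, where both genes vary little, it was 0.262. With CCL3 and SOD2 the SIVE r was 0.870 and 0.874, and 0.792 and 0.780 without 2 animals.

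**Figure D4:**
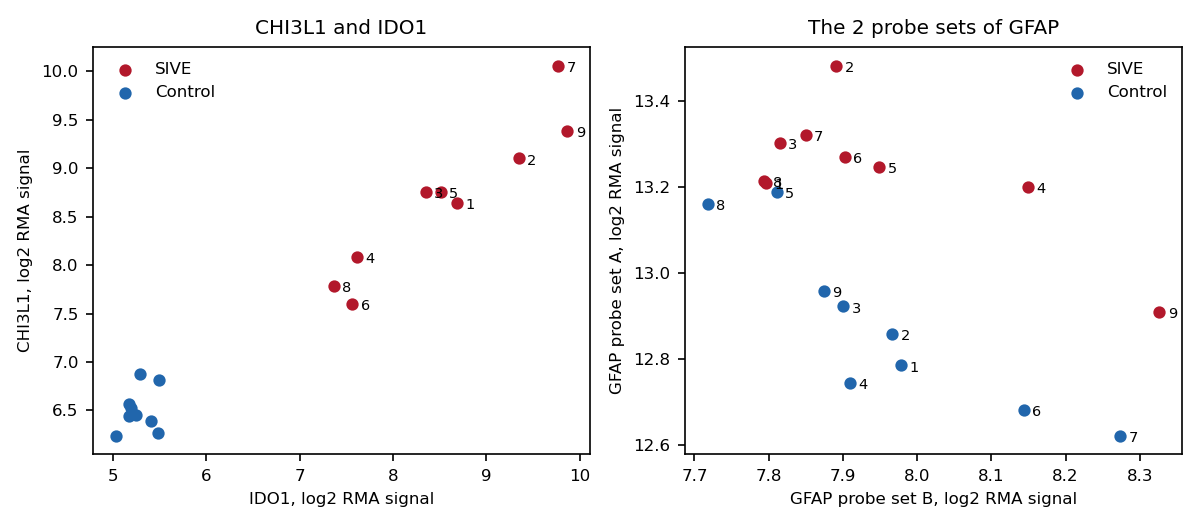
Left, CHI3L1 against IDO1, both as log2 signal, with SIVE animals numbered and controls in blue; right, GFAP probe set A against GFAP probe set B. On the left the SIVE animals run upward (r = 0.945) while controls form a tight group at low values of both; on the right both groups slope downward (r = -0.71 in SIVE, -0.88 in controls).

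For OSMR the closest were SLC16A9, a member of the monocarboxylate transporter family (r = 0.847), ANO6, a scramblase and ion channel of the plasma membrane (0.833), and WWTR1, the transcription coactivator TAZ of the Hippo pathway (0.823). Each was higher in SIVE, by 0.73 ± 0.13 for SLC16A9 (limma, adjusted p = 0.00111), 0.84 ± 0.15 for ANO6 (adjusted p = 0.00172) and 0.64 ± 0.12 for WWTR1 (adjusted p = 0.00209). The r with OSMR was 0.903 for SLC16A9 in SIVE and 0.748 in controls, and 0.930 for ANO6 in SIVE and 0.739 in controls. WWTR1 had 0.818 in SIVE, and 0.352 without SIVE 1 and SIVE 7. For CD44 the r values were lower: 0.696 with SLFN5, an interferon-inducible Schlafen gene, 0.679 with RIMKLA, which makes N-acetylaspartylglutamate, and 0.665 with the chemokine CXCL10. CXCL10 averaged 9.89 ± 1.09 in SIVE and 4.70 ± 0.19 in controls, a difference of 5.19 ± 0.34 (limma, adjusted p = 2.67e-09), and its r with CD44 in SIVE was 0.699, and 0.331 without SIVE 7 and SIVE 3. SLFN5 had 0.853 with CD44 in SIVE and -0.32 in controls. With the 3′ minus 5′ difference, SLFN5, RIMKLA and CXCL10 correlated at -0.45, -0.64 and -0.39 over the 18 animals.

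For GFAP the closest genes, TLR9, HMX1 and AMZ1, had r of 0.955, 0.946 and 0.926 over the 18 deviations, yet none of the 3 passed in SIVE against control. TLR9, a receptor for unmethylated DNA, averaged 6.03 ± 0.18 in SIVE and 6.13 ± 0.20 in controls, near the median probe set level. TLR9, HMX1 and AMZ1 correlated with the 3′ minus 5′ difference at 0.58, 0.50 and 0.43 over the 18 animals. The part of RNA quality in these correlations was not tested.

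Other genes reported for reactive astrocytes were read from a list of 15, of which 12 had a probe set of 1 symbol; HSPB1, C3 and NES had none with that symbol alone. In SIVE 6 of 12 rose and 0 fell, with a median difference of 0.30, where over all genes 5.72% were higher and 1.51% lower, with a median of -0.02. SERPINA3, a secreted inhibitor of serine proteases, averaged 12.34 ± 0.56 in SIVE and 8.21 ± 0.64 in controls, a difference of 4.13 ± 0.26 (limma, adjusted p = 1.78e-09). S100A10, a partner of annexin A2, was higher by 0.95 ± 0.16 (adjusted p = 0.000987), the metal-binding MT2A by 0.79 ± 0.12 (adjusted p = 0.000160), and VIM, the vimentin filament protein, by 0.78 ± 0.16 (adjusted p = 0.00446). PTX3 and CRYAB also rose. PTX3 averaged 3.92 ± 0.62 in SIVE and 3.19 ± 0.09 in controls, both below the median probe set level. CRYAB had 2 probe sets, and the other did not pass in that direction. Among animals without anti-CD8, neither PTX3 (limma, adjusted p = 0.0595) nor CRYAB (adjusted p = 0.212) passed. LCN2, which marks acute gliosis in mice, averaged 7.44 ± 0.20 in SIVE and 7.57 ± 0.34 in controls (adjusted p = 0.568), and TIMP1 averaged 9.25 ± 0.34 in SIVE and 9.15 ± 0.34 in controls (adjusted p = 0.736); both were named after their values were seen. TIMP1 had 3 probe sets, and 1 of those not shown passed as higher. VIM had 4 probe sets, and the other 3 did not pass in that direction.

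**Figure D5:**
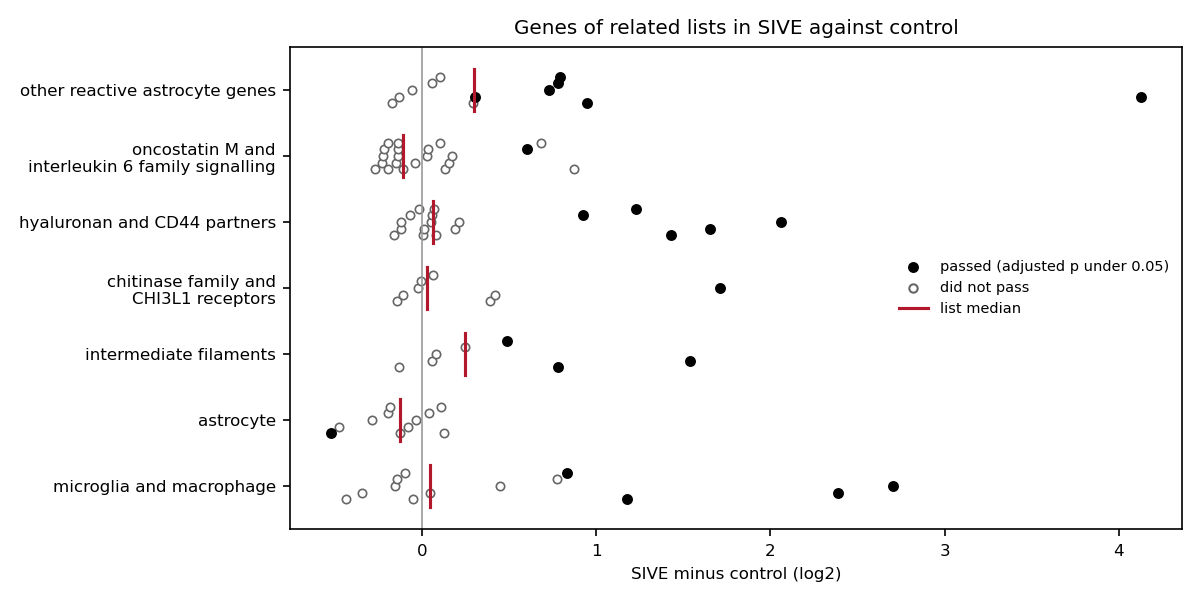
Each point is a gene of a list, placed by SIVE minus control (log2) of its brightest probe set; filled points passed at an adjusted p under 0.05, and the bar is the list median. Among other reactive astrocyte genes 6 of 12 are filled with SERPINA3 at 4.13, while the oncostatin M and interleukin 6 list has 1 filled point and a median of -0.11.

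Intermediate filament genes other than GFAP had 3 of 7 higher and 0 lower, with a median of 0.25. VIM is given above. PRPH, peripherin of nerve cells, averaged 7.29 ± 1.17 in SIVE and 5.76 ± 0.25 in controls, a difference of 1.54 ± 0.37 (limma, adjusted p = 0.0171), and the nuclear lamin LMNB1 was higher by 0.49 ± 0.11 (adjusted p = 0.00981). PRPH did not pass among animals without anti-CD8 (limma, adjusted p = 0.159). SYNM, synemin, which joins GFAP and vimentin filaments, averaged 9.79 ± 0.31 in SIVE and 9.54 ± 0.18 in controls (adjusted p = 0.212).

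Around OSMR, the oncostatin M and interleukin 6 family list had 1 of 21 higher and 0 lower, with a median of -0.11, where over all genes 5.72% were higher. The one was IL6R, the interleukin 6 receptor, which averaged 7.17 ± 0.28 in SIVE and 6.57 ± 0.30 in controls, a difference of 0.60 ± 0.13 (limma, adjusted p = 0.00770). Of the genes downstream of OSMR, the kinase JAK2 differed by 0.68 ± 0.21 (adjusted p = 0.0690) and STAT3 by 0.87 ± 0.28 (adjusted p = 0.0827), neither past the threshold. JAK2 had 3 probe sets, of which 1 other passed as higher. IL6 had 2 probe sets. The brighter averaged 4.31 ± 0.22 in SIVE and 4.14 ± 0.17 in controls, below the median probe set level, and did not pass (limma, adjusted p = 0.286). The other probe set of IL6 passed as higher. Among animals without anti-CD8, STAT3 passed (adjusted p = 0.0268) and IL6R did not (adjusted p = 0.113). CNTFR, the ciliary neurotrophic factor receptor, differed by -0.27 ± 0.08 (adjusted p = 0.0756). The ligand OSM averaged 4.56 ± 0.16 in SIVE and 4.78 ± 0.25 in controls, and the feedback inhibitor SOCS3 4.62 ± 0.17 in SIVE and 4.59 ± 0.23 in controls, all below the median probe set level. IL6ST, the subunit that OSMR pairs with, averaged 5.94 ± 0.67 in SIVE and 6.17 ± 0.74 in controls (adjusted p = 0.716). IL6, OSM, SOCS3 and IL6ST were named after their values were seen.

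Among ligands and partners of CD44 and enzymes of hyaluronan, 5 of 18 rose and 0 fell, with a median of 0.06. The proteoglycan SRGN averaged 10.67 ± 0.37 in SIVE and 9.02 ± 0.29 in controls, a difference of 1.65 ± 0.15 (limma, adjusted p = 2.50e-07). CD74, the invariant chain that forms a receptor with CD44, averaged 9.79 ± 0.41 in SIVE and 7.72 ± 0.51 in controls, a difference of 2.06 ± 0.20 (adjusted p = 9.70e-07). SPP1, osteopontin, a ligand of CD44, was higher by 1.23 ± 0.15 (adjusted p = 1.55e-05), with no overlap between groups. MSN, moesin, which links CD44 to actin, was higher by 0.93 ± 0.13 (adjusted p = 0.000107), though the other 3 of its 4 probe sets did not pass in that direction, and LYVE1 was the fifth. LYVE1 did not pass among animals without anti-CD8 (limma, adjusted p = 0.104). HAS2, which makes hyaluronan, averaged 4.32 ± 0.17 in SIVE and 4.25 ± 0.15 in controls, below the median probe set level, and was named after its values were seen. As background, CD74, SRGN and SPP1 are also made by macrophages.

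Of the chitinase family and the receptors of CHI3L1, 1 of 8 rose and 0 fell, with a median of 0.03, where over all genes 5.72% were higher. The one was CHI3L2, a close relative of CHI3L1, which averaged 7.56 ± 0.66 in SIVE and 5.85 ± 0.20 in controls with no overlap, a difference of 1.71 ± 0.21 (limma, adjusted p = 2.77e-05). CHIT1, the true chitinase of macrophages, averaged 5.93 ± 0.45 in SIVE and 5.51 ± 0.17 in controls (adjusted p = 0.123). CTBS and CHIA differed by 0.39 ± 0.13 (adjusted p = 0.0869) and -0.14 ± 0.09 (adjusted p = 0.365). Whether the probes of CHI3L1 and CHI3L2 read each other's transcripts was not tested.

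Markers of the cells that could carry these genes moved as follows, where over all genes 5.72% were higher and 1.51% lower. Of 11 astrocyte markers 0 rose and 1 fell, with a median of -0.13: SLC1A2, the main glutamate transporter, averaged 11.62 ± 0.28 in SIVE and 12.15 ± 0.20 in controls, a difference of -0.52 ± 0.11 (limma, adjusted p = 0.00613). KCNJ10, GJB6 and SLC1A3 differed by -0.29, -0.48 and 0.12 with adjusted p from 0.144 to 0.334. Of 13 microglia and macrophage markers 4 rose and 0 fell, with a median of 0.04, and the list mean ran from 7.41 to 8.10 in SIVE and from 7.02 to 7.57 in controls. LYZ averaged 7.80 ± 0.78 in SIVE and 5.10 ± 0.57 in controls (difference 2.71), VSIG4 8.11 ± 0.73 in SIVE and 5.72 ± 0.44 in controls (2.39), CD14 8.53 ± 0.58 in SIVE and 7.35 ± 0.39 in controls (1.18), and AIF1 7.99 ± 0.46 in SIVE and 7.16 ± 0.32 in controls (0.83), with AIF1 not passing on its other probe set. AIF1 did not pass among animals without anti-CD8 (limma, adjusted p = 0.154). P2RY12 and CX3CR1, markers of resting microglia named after their values were seen, averaged 7.32 ± 1.22 and 5.81 ± 0.52 in SIVE and 7.75 ± 0.87 and 5.96 ± 0.31 in controls and did not pass.

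Of 5 T and NK cell markers 1 rose, GZMB, by 2.36 ± 0.34 (limma, adjusted p = 0.000147). NKG7 differed by 0.41 ± 0.13, CD8A by -0.12 ± 0.18, CD8B by -0.10 ± 0.07 and GZMA by 0.08 ± 0.26. None of these passed (limma, adjusted p from 0.0885 to 0.899). CD8B and NKG7 were below the median probe set level. The T and NK cell list mean ran from 6.21 to 7.15 in SIVE and from 5.90 to 6.53 in controls. Of 11 endothelial, pericyte and fibroblast markers 3 rose, PECAM1 by 0.83 ± 0.18 (adjusted p = 0.00896), VWF by 0.98 ± 0.24 (adjusted p = 0.0228) and CDH5 by 0.52 ± 0.12 (adjusted p = 0.0165). Among animals without anti-CD8, PECAM1, VWF and CDH5 did not pass (limma, adjusted p = 0.0847, 0.0604 and 0.117). VWF and CDH5 had 2 probe sets each, and the other did not pass in that direction. The endothelial, pericyte and fibroblast list mean ran from 6.42 to 7.13 in SIVE and from 6.19 to 7.11 in controls. Of 5 neutrophil markers 0 rose and 1 fell, MPO, by -0.24 ± 0.06 (adjusted p = 0.0199). MPO did not pass among animals without anti-CD8 (limma, adjusted p = 0.0773). S100A9 and S100A8 differed upward, by 0.73 ± 0.23 (limma, adjusted p = 0.0730) and 0.96 ± 0.32 (adjusted p = 0.0918), and did not pass. CSF3R differed by 0.04 and S100A12 by -0.03. S100A8, CSF3R and S100A12 were below the median probe set level. The neutrophil list mean ran from 4.54 over a median of 5.02 to 5.47 in SIVE, and from 4.54 over a median of 4.71 to 4.87 in controls. Of 5 neuron markers 1 fell, TUBB3, by -0.51 ± 0.12 (adjusted p = 0.0118), of 2 oligodendrocyte markers 1 fell, MBP, by -0.32 ± 0.07 (adjusted p = 0.00897), and of 4 dentate granule cell markers 0 passed. MPO and TUBB3 each passed on 1 probe set, of 2 for MPO and 4 for TUBB3. The part of macrophages, lymphocytes and vessel cells in the rise of CHI3L1, OSMR and CD44 was not tested.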

How the data were processed

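The deposited table holds log2 signals of 52865 probe sets on 36 arrays; the authors made them with RMA, per the submitters' processing notes, and the log2 scale was read from the values. Neither the RMA version nor the probe definitions are given in the sources used here. Left out were 99 Affymetrix control and 59 reporter probe sets. Duplicate arrays were averaged to 1 value per animal. Linear models were fitted to each probe set by limma (version 3.58.1, R version 4.3.3) with empirical Bayes moderation; p-values are two-sided, adjusted by Benjamini and Hochberg's method across the 52707 probe sets tested, and called below 0.05. Comparisons that involve the antibody used a cell-means model over the 4 combinations of group and anti-CD8, with 1 spread for all 18 animals. Permutation tests used Python 3.11.15 and scipy 1.17.1. The fits were tested on simulated data. Arrays give no counts, and the number of animals limits the precision. The limma p-values set group differences against the spread between these animals. Labels do not say how animals were housed or infected, and the part of either was not tested.

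The members, the lists and the 3 animals of high 3′ signal were chosen with earlier results of these data known. Genes were named by rule: all member probe sets, the 4 genes of smallest adjusted p in a list, and the 3 genes most like each member. The rule of 4 was followed in the gene lists other than cell types, and in the astrocyte and the microglia and macrophage lists. In the endothelial, pericyte and fibroblast, neuron and oligodendrocyte lists, only genes that passed were given with a difference. All measured T and NK cell, neutrophil and dentate granule cell markers were named. Other genes were named because they passed, or are marked where they appear. A gene outside the members is its probe set of highest mean. Symbols came from the platform's annotation: 24969 probe sets had 1 symbol, 361 several and 27535 none. Same-numbered animals of the 2 groups did not deviate together (0 of 9 pairs correlated over 0.1), so no block was used. Alternatives were single arrays of an animal, all arrays with the animal as a random block, renewed quantile normalization, a filter on dim probe sets, eBayes with trend, covariates, animals left out and the mean over a gene's probe sets.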

Additional observations from a re-analysis of the deposited data

Results flagged for a closer look

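Among 35 groups of 4 to 9 animals (7 probe sets in 5 groups) tested for 1 value far from the rest, 5 were marked, where chance marks about 1 in 20. GFAP probe set A was lowest in SIVE 9, at 12.91, both of all 9 SIVE animals (next 13.20) and of the 5 untreated ones (next 13.21). OSMR probe set B was lowest of the 5 untreated SIVE animals in SIVE 6, at 6.14 (next 6.54). OSMR probe set C was highest in SIVE 8, at 5.65, of all 9 SIVE animals and of the 5 untreated ones (next 4.63).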

How the results depend on the processing

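Under 29 alternatives 4 to 5 of the 7 probe sets passed in SIVE against control, among 1368 to 5294 of all probe sets (2595 as reported), and without anti-CD8 4 to 5 passed under 28, among 531 to 3197 (1652). The exception in SIVE against control was GFAP probe set A with the replicate block, which left 4 passing (limma, adjusted p = 0.0698) among 1368; replicate numbers do not pair these animals (0 of 9 correlated best with its own number, r from -0.488 to 0.0888). Leaving out each animal in turn kept GFAP probe set A passing, at adjusted p 0.00385 to 0.0280. For anti-CD8 within SIVE, all 36 arrays with the animal as a random block gave 1 member (OSMR probe set B) and 1930 probe sets, against 0 members under every other alternative; the cause was not tested. Within control, up to 5963 probe sets passed (without Control 9) and 0 members. List counts that moved over 1.5 times were 1 to 4 for oncostatin M and interleukin 6 signalling, 1 to 3 for the chitinase family, 1 to 3 for astrocytes, 1 to 2 for T and NK cells, 0 to 2 for neutrophils, 0 to 3 for vessel and fibroblast markers and 0 to 1 for neurons.

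None of the values that turned sign had passed its test. In the difference of the SIVE effect, CHI3L1 ran from -0.876 to 0.105 and OSMR probe set C from -0.212 to 0.430 over the alternatives. GFAP probe set B in SIVE against control was 0.0506 on the first array alone, 0.0137 with anti-CD8 as a covariate, and -0.0595 to 0.0287 with 1 animal left out. CHI3L1 in anti-CD8 within SIVE was 0.124 with the replicate block and -0.349 to 0.266 with 1 animal left out. The r of GFAP with CHI3L1 was -0.00247 and -0.00205 on single arrays, -0.175 without SIVE 2 and SIVE 3, and -0.175 to 0.511 with 1 animal left out. The r of GFAP with OSMR was -0.325 to 0.240 with 1 left out. The r of GFAP with CD44 was -0.167 by rank, -0.100 on the second array alone, and -0.0891 to 0.136 with 1 left out. The r of CHI3L1 with OSMR was -0.0402 over the mean of OSMR's probe sets. With 9 animals a group and 4 or 2 treated, the number of animals limits the antibody comparisons, and GFAP probe set A lies near the top of the scale.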
